A study of Homo sapiens with 4 samples.

Results

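Of the 60676 genes in the deposited table, 60639 lay outside the mitochondrial genome, and 92 of these were read almost only in a pull-down with non-specific IgG. They were chosen by their raw reads: at least 50 in the IgG pull-down, at most 10 in the LC3B pull-down and at most 10 summed over both inputs. The rule was met by 0.152% of the genes outside the mitochondrial genome. Their reads in the 4 libraries therefore describe the choice and support nothing by themselves, whereas their gene class, position, span and neighbours were not used by the rule. In all, 9367 reads fell on the 92 genes over the 4 libraries, and 92.6% of these were in the IgG pull-down.

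The study was made in U2OS cells, a human osteosarcoma cell line in wide use. Nuclear RNA immunoprecipitation was native, meaning that RNA bound to proteins of a nuclear lysate was recovered with an antibody without crosslinking, and then sequenced. The 4 groups were the pull-down with an antibody against LC3B, the pull-down with IgG, and the input of each, taken without antibody; the labels give no treatment. Polyadenylated RNA was amplified with a kit for very small amounts (SMART-Seq v4), and each group held 1 library, so replicate error is unknown and nothing was tested across samples.

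LC3B is a ubiquitin-like protein that is conjugated to lipids of autophagosome membranes, where cargo receptors bind it through short interaction motifs. A pull-down with non-specific IgG has no chosen target. It serves to measure the RNA that comes along with antibody and beads, and genes read there are usually taken off the list of candidate targets. Several of the 92 genes are known from other tissues than bone, such as a hedgehog ligand, an olfactory receptor, an alpha globin and a liver glucose transporter.

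The IgG pull-down stood apart from the other libraries in how its reads were spread. Below, "with LC3B" and "with IgG" name the pull-downs. Total counts were 10456770 with LC3B, 10000914 with IgG, 10782146 in LC3B input and 10886762 in IgG input. Reads fell on 23915 genes with LC3B and on 14440 with IgG, against 23082 in LC3B input and 22947 in IgG input. Among genes outside the mitochondrial genome that had a read, the median was 46 reads with LC3B and 159 with IgG, against 43 and 41 in the LC3B and IgG inputs. The IgG pull-down thus held fewer genes with more reads on each. The part of this spread in the choice of the 92 genes was not tested. Of 12 markers of mesenchymal cells and osteosarcoma, 10 had at least 10 reads in every library, among them SPARC, VIM and COL1A1, while TWIST1 was at 0 in all 4 libraries and COL1A2 had at most 3 reads.

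The 250 bases before the start are shown for 3 of the genes, because they came from different gene classes of restricted expression and had 0 reads with LC3B. They were chosen after their values were seen. DHH encodes desert hedgehog, a secreted ligand known from Sertoli and Schwann cells, OR4C6 an olfactory receptor, and MBD3L2 a relative of the methyl-CpG-binding protein MBD3. The sequences are those of RefSeq on GRCh38.p14, read 5′ to 3′ on the strand of the gene, and end next to the first base of the gene in the deposited table. Capitals mark matches, on either strand, to the TATA box (letters TATAAA), to the CCAAT box (these letters) and to the GC box (letters GGGCGG). These motifs were searched without regard to one another, and no matches overlapped in the sequences shown.
DHH, chr12:49094802-49095051, minus strand: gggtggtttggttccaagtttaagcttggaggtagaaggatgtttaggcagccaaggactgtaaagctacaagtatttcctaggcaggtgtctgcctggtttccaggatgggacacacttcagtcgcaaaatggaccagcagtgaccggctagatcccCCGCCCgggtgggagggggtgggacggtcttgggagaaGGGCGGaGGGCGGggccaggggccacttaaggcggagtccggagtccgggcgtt
OR4C6, chr11:55661951-55662200, plus strand: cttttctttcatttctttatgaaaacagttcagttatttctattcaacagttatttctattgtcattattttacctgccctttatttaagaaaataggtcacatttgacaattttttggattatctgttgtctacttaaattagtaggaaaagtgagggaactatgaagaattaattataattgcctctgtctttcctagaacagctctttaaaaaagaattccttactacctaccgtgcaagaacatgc
MBD3L2, chr19:7049071-7049320, plus strand: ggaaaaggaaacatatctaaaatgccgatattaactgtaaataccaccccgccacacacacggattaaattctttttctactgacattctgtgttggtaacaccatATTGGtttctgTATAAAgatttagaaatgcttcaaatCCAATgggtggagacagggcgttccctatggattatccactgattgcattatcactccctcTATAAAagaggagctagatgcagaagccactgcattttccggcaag

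The 3 stretches had little in common. DHH had 59.6% G and C with 3 GC box matches, which began 92, 54 and 47 bases before the start. OR4C6 had 30% G and C and no match. MBD3L2 had 40.4% G and C, with TATA box matches 133 and 46 bases and CCAAT box matches 144 and 107 bases before the start. Of the 92 genes, 36 were matched by symbol to a RefSeq promoter. Their 250 bases held TATAAA in 5 of 36 (13.9%), against 11.1% of all 27305 promoters, CCAAT in 12 of 36 (33.3%), against 33.0%, and GGGCGG in 16 of 36 (44.4%), against 42.3%. The median content of G and C was 58.4% in the 36 promoters and 58% in all, and the median number of CG dinucleotides was 5.5 and 11. A match is a description of the letters and no evidence of a bound factor.

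Per gene, the 92 had a median of 3 reads with LC3B (0 to 10) and 81.5 with IgG (51 to 287). The median was 2 in the LC3B input (0 to 8) and 2 in the IgG input (0 to 7). Summed, the genes took 306 reads of the LC3B pull-down, 8676 of the IgG pull-down, 197 of the LC3B input and 188 of the IgG input. The 8676 reads were 0.0868% of the IgG pull-down (95% exact Clopper-Pearson interval 0.0849 to 0.0886). These bounds, and the floors used later, reflect counting error alone, because PCR copies cannot be told from separate molecules here. In TPM, the deposited share per transcript length, the median level with IgG was 6.96, from 0.47 for XKR4 to 20.8 for MUC1. Over all 9573 genes outside the mitochondrial genome with at least 50 reads in that library, the median level was 22.1 TPM, so that the 92 genes lay in its lower range.

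**Figure D1:**
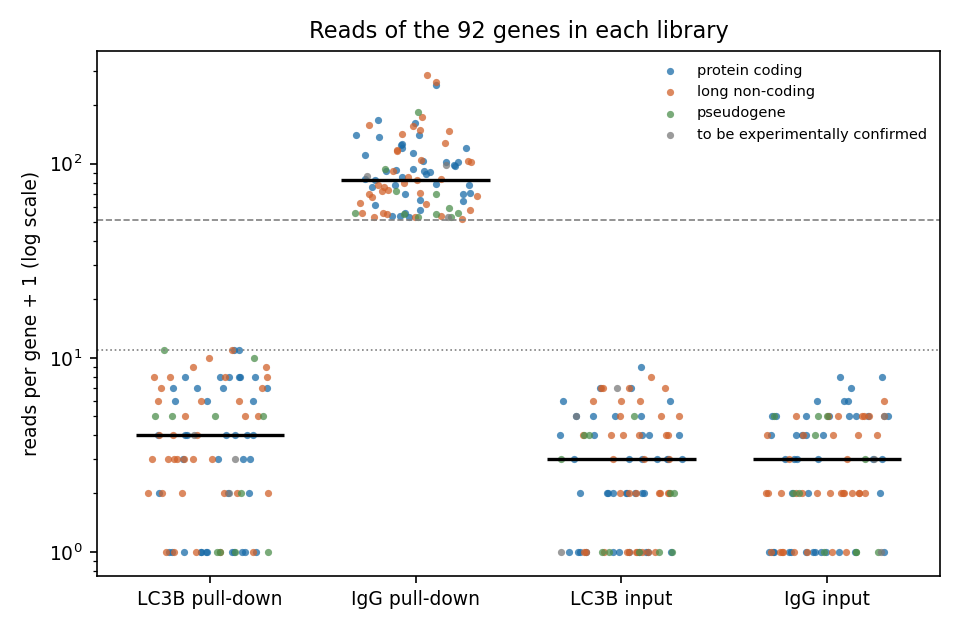
Reads per gene plus 1 (log scale) of the 92 genes in 4 libraries: the LC3B and IgG pull-downs, then the input of each, 1 point per gene coloured by gene class, with the median as a bar. The dashed line marks 50 reads and the dotted line 10 reads, so the gap between the IgG pull-down and the other libraries follows from the rule.

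The rule met few genes when the libraries were exchanged. With the LC3B pull-down in the place of the IgG pull-down it was met by 3 genes, or 0.00495% of those outside the mitochondrial genome. These were AP002748.5 with 94 reads, FAM220A with 85 and CKMT1A, a mitochondrial creatine kinase, with 66, each at 0 with IgG. For the inputs a looser form was used, with at least 50 reads in 1 input and at most 10 in each other library. It was met by 1 gene, AL139300.1, for the LC3B input and by 0 for the IgG input. Among the genes that were low in the other libraries, 1834 had a read with IgG and 5.02% of these had at least 50. For the LC3B pull-down 6810 such genes had a read and 0.0441% had at least 50. The median was 2 reads in both, and the highest was 287 with IgG and 94 with LC3B. Such genes were thus fewer with IgG, but 30 of them reached 100 reads there and 0 did with LC3B.

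**Figure D2:**
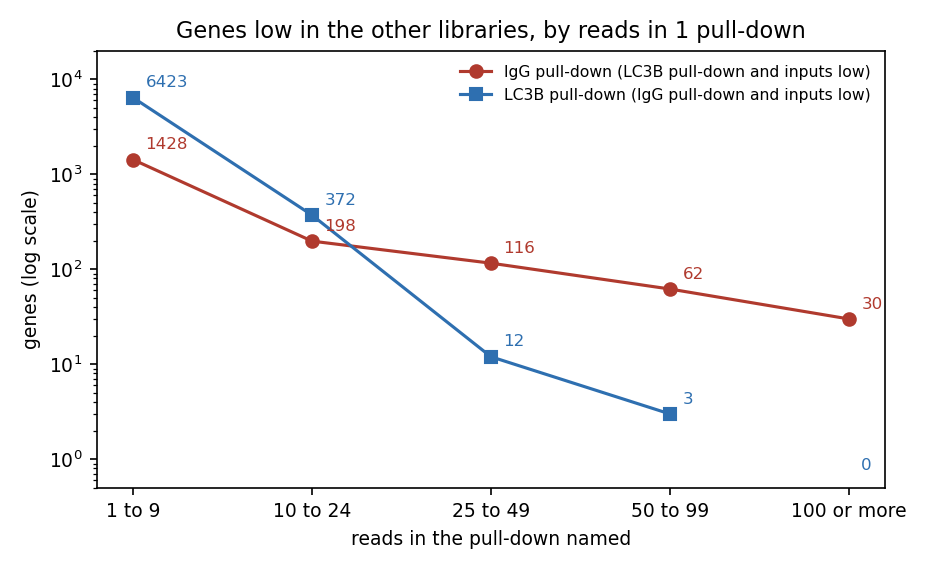
Number of genes (log scale) by their reads in 1 pull-down, among genes with at most 10 reads in the other pull-down and at most 10 summed over the inputs. The line of the IgG pull-down starts lower, with 1428 genes at 1 to 9 reads against 6423 for the LC3B pull-down, and ends higher, with 30 against 0 genes at 100 reads or more.

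At the edges of the rule the values ran on without a wide gap. SPATA3-AS1 was the lowest inside, with 51 reads with IgG, and AC006511.3 and MUSTN1 lay just outside with 48 each. CAPS, KCNAB3 and CACTIN-AS1 had 10 reads summed over the inputs, while CYSRT1 lay outside with 11 and had 79 with IgG. GPR143, MUC1 and AC022382.2 had 10 reads with LC3B, while AC087741.1 lay outside with 11 and had 85 with IgG. ACTC1, cardiac actin, was outside through the inputs: it had 3 reads with LC3B, 258 with IgG, 9 in LC3B input and 8 in IgG input.

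All 92 genes were lower with LC3B than with IgG and higher with IgG than in its input, as the rule made them. A gene was called where the 95% exact conditional binomial interval of the fold of CPM (reads as a share of the library total) lay at or below 0.5, or at or above 2. Over all genes 2.62% were called lower and 4.21% higher in these comparisons, and among genes with at least 50 reads with IgG 13.7% and 23%. The comparison of the LC3B pull-down with its own input called 0 of the 92 higher and 0 lower, against 1.66% and 0.531% of all genes, and both its libraries were also held low by the rule. The largest upper bound of the fold of LC3B over IgG was 0.351, for LRRC37A17P, and the smallest lower bound of the fold of IgG over its input was 4.26, for VIPR1. The inputs did not lean to one side: 35 genes had more reads in the input of LC3B than in that of IgG, 32 had fewer and 25 had equal reads.

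By gene class, 41 of the 92 were protein coding (44.6%, 95% exact interval 34.2 to 55.3), 37 long non-coding (40.2%, 30.1 to 51.0) and 11 pseudogenes (12.0%, 6.12 to 20.4). The remaining 3 were TEC, a provisional class of transcripts awaiting experimental evidence. Small RNA genes and the other classes had 0 of 92, and they made up 0.0313% of all genes with at least 50 reads with IgG and 12.3% of all genes outside the mitochondrial genome. The protein-coding share lay above that of genes under the same limits elsewhere with 1 to 49 reads with IgG, at 26.4% of 1742. Among such genes with 0 reads with IgG it was 14.3% of 41597. These limits are ceilings, so reads below them may differ between the sets. The share in the 92 lay far below the 89.1% of all genes with at least 50 reads with IgG, of which 8.40% were long non-coding and 2.26% pseudogenes. Pseudogenes were 34.8% of the genes with 1 to 49 reads and 33.4% of those with 0, so their share was lower in the 92. No difference between these shares was tested.

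**Figure D3:**
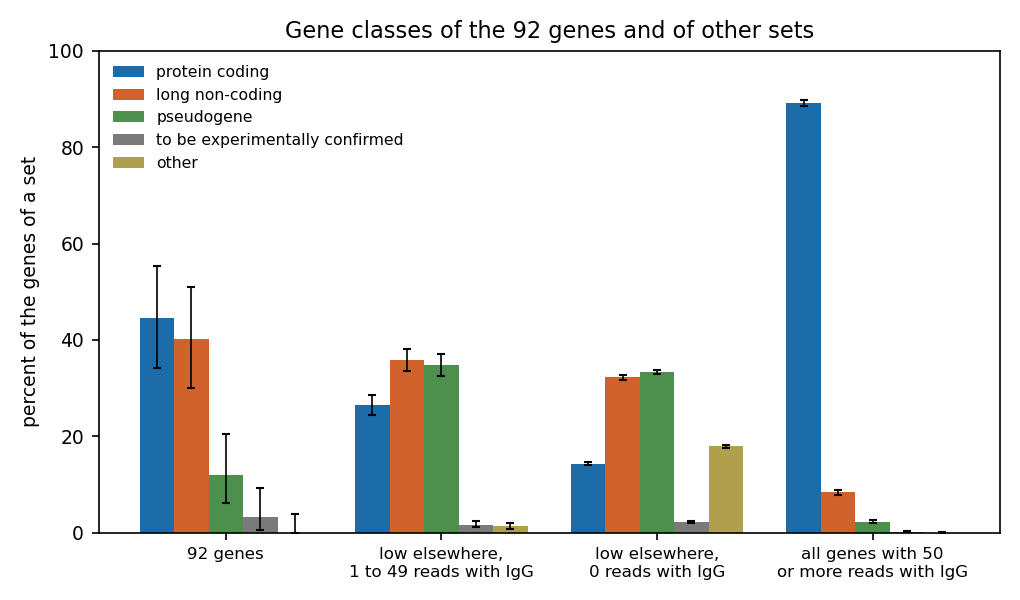
Percent of genes in each class, with the 92 genes first. Next come genes under the same limits in the other libraries, with 1 to 49 or 0 reads with IgG. Last are all genes with at least 50 reads there. Bars start at 0 and error bars are 95% exact binomial intervals over genes. The 92 genes were 44.6% protein coding, between the 26.4% of less read genes and the 89.1% of all well read genes.

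Reads with IgG, which are not corrected for gene length, overlapped across classes. Protein-coding members had a median of 91 reads there (52 to 254), long non-coding ones 79 (51 to 287) and pseudogenes 55 (52 to 183). The ranges overlapped over most of their length. In the LC3B pull-down the medians were 3, 3 and 4 reads in the same order of classes. Of the 92 genes, 37 had 1 transcript listed and 15 had at least 10. A clone-based name, which carries no known function, was borne by 31 genes, 22 of them long non-coding.

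Among secreted signals and cell surface receptors, DHH (ENSG00000139549, chromosome 12, 49086656 to 49094801, minus strand) had 0 reads with LC3B, 168 with IgG, 1 in LC3B input and 5 in IgG input. The other hedgehog ligands were near 0 in every library, with at most 1 read of IHH and 0 of SHH in each. Of 8 receptors and effectors of the pathway, 5 were at 0 with IgG and 1 had at least 50 reads there. This was SUFU, an inhibitor of GLI factors, with 62 reads with LC3B, 397 with IgG, 50 in LC3B input and 55 in IgG input. PTCH1, the hedgehog receptor, had 42 reads with LC3B, 3 with IgG, 57 in LC3B input and 34 in IgG input. GLI3, a transcription factor of the pathway, had 127 with LC3B, 0 with IgG, 128 in LC3B input and 117 in IgG input, and SMO, its signal transducer, 32 with LC3B, 0 with IgG, 19 in LC3B input and 13 in IgG input. The receptors and effectors were listed after values had been seen.

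IGDCC3 (ENSG00000174498, chromosome 15, 65327127 to 65378002), a surface protein of the immunoglobulin superfamily, had 3 reads with LC3B, 254 with IgG, 3 in LC3B input and 1 in IgG input, the most of the protein-coding members. Its neighbour and relative IGDCC4, 3.48 kb away on the same strand, had 26 with LC3B, 81 with IgG, 25 in LC3B input and 26 in IgG input. IGDCC4 was also lower with LC3B than with IgG and higher with IgG than in its input, but with reads in every library. FNDC5 (chromosome 1, 32862268 to 32872482), the precursor of the muscle hormone irisin, had 5 reads with LC3B, 162 with IgG, 2 in LC3B input and 3 in IgG input, and its fold of LC3B over IgG was 0.0295 (0.00946 to 0.0703).

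GPR143 (chromosome X, 9725346 to 9786297), a receptor of pigment cell melanosomes, had 10 reads with LC3B, 137 with IgG, 1 in LC3B input and 4 in IgG input. OR4C6 (chromosome 11, 55662201 to 55666195) had 0 with LC3B, 119 with IgG, 1 in LC3B input and 0 in IgG input. Of 404 olfactory receptor genes, a family expressed in the nose, 385 were at 0 with IgG and OR4C6 was the one with at least 50 reads there. With LC3B more of them were read: 35 had a read and 3 had at least 50, the highest at 61. OR4C6 made up 0.248% of the family, against 0.152% of all genes outside the mitochondrial genome that met the rule. The pseudogene OR4P1P, 17.0 kb from OR4C6 on the same strand, was also among the 92, with 1 read with LC3B, 69 with IgG and 0 in each input.

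Further receptors were chosen after their values were seen. CSF3R, the receptor of granulocyte colony-stimulating factor, had 77 reads with IgG and 0 in the other 3 libraries. It was at least 26.8-fold lower with LC3B than with IgG, with 3 reads set for the library at 0. IL9R, the interleukin 9 receptor, had 5 reads with LC3B, 90 with IgG, 4 in LC3B input and 2 in IgG input. VIPR1, a receptor of vasoactive intestinal peptide, had 6 with LC3B, 60 with IgG, 1 in LC3B input and 7 in IgG input. ADCY5, an adenylate cyclase, had 3 with LC3B, 55 with IgG, 2 in LC3B input and 4 in IgG input. IL9R has a copy on the Y chromosome, and how reads shared with it were counted is not given in the sources used here. Of the other 9 adenylate cyclases 4 had at least 50 reads with IgG. Among these ADCY2 had 7 reads with LC3B, 59 with IgG, 16 in LC3B input and 14 in IgG input, and ADCY3 had 234 with LC3B, 387 with IgG, 89 in LC3B input and 119 in IgG input. ADCY9 went the other way, with 51 with LC3B, 2 with IgG, 19 in LC3B input and 14 in IgG input.

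Channels and transporters were set beside their families. Of 95 potassium channel genes, 2 were among the 92 (2.11%) and 8 had at least 50 reads with IgG. The rule was met by 0.152% of all genes outside the mitochondrial genome. KCNJ5, an inward rectifier of heart and adrenal gland, had 7 reads with LC3B, 91 with IgG, 1 in LC3B input and 7 in IgG input. KCNAB3, an auxiliary subunit of voltage-gated channels, had 3 with LC3B, 91 with IgG, 8 in LC3B input and 2 in IgG input. Of the other 15 KCNJ genes 0 had 50 reads with IgG, and KCNJ8 had 50 reads with LC3B, 0 with IgG, 14 in LC3B input and 33 in IgG input. Solute carriers gave 2 of 369 genes (0.542%), and 130 of the 369 had at least 50 reads with IgG. SLC2A2, the glucose transporter of liver and pancreatic beta cells, had 77 reads with IgG and 0 in the other 3 libraries, while SLC2A1, the transporter of most cells, had 1329 with LC3B, 1434 with IgG, 705 in LC3B input and 567 in IgG input. SLC2A7, of the same family, had 33 reads with IgG and 0 in the other 3 libraries. SLC25A41, a mitochondrial carrier, had 2 with LC3B, 88 with IgG, 3 in LC3B input and 3 in IgG input. GJA5, a connexin of heart and vessels, had 0 with LC3B, 52 with IgG, 1 in LC3B input and 0 in IgG input.

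Structural genes of skin, muscle, blood and epithelium came singly, and their families were listed after values had been seen. TGM5, a transglutaminase that crosslinks the cornified envelope of skin, had 7 reads with LC3B, 113 with IgG, 0 in LC3B input and 5 in IgG input. LCE1C, a protein of that envelope, had 3 with LC3B, 53 with IgG, 0 in LC3B input and 0 in IgG input, and the other 17 late cornified envelope genes were at 0 with IgG. MUC1 (chromosome 1, 155185824 to 155192916), a transmembrane mucin of epithelia, had 10 reads with LC3B, 119 with IgG, 5 in LC3B input and 2 in IgG input. ADAM8, a membrane metalloprotease, had 3 with LC3B, 110 with IgG, 1 in LC3B input and 4 in IgG input. Of the keratins, which are intermediate filaments of epithelia, 0 of 49 were among the 92. With 0.152% of all genes outside the mitochondrial genome meeting the rule, this 0 does not set them apart.

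TNNI2, the inhibitory troponin of fast muscle, had 6 reads with LC3B, 53 with IgG, 2 in LC3B input and 0 in IgG input, whereas TNNT1, the slow muscle troponin T, had 9229 with LC3B, 6690 with IgG, 3750 in LC3B input and 4017 in IgG input. HBA2, an alpha globin, had 0 reads with LC3B, 57 with IgG, 0 in LC3B input and 1 in IgG input. Its near-identical copy HBA1 had 0 with LC3B, 4 with IgG, 2 in LC3B input and 0 in IgG input, and reads of the pair may have been divided between them. The 11 blood markers summed to 20 reads with LC3B, 70 with IgG, 10 in LC3B input and 25 in IgG input, and 57 of the 70 were those of HBA2. PTPRC, the leukocyte surface marker, had 1 read with IgG, HBB had 5, and CD3E and LYZ were at 0 in all 4 libraries. In a bulk sample few cells with much of an RNA and many cells with little cannot be told apart.

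Among the lists of other cell types, the blood and germ cell markers were read mainly with IgG, each list through 1 gene, HBA2 and SYCP3. The germ cell markers summed to 2 reads with LC3B, 31 with IgG, 2 in LC3B input and 2 in IgG input. The other lists were not read mainly with IgG, although ACTC1, given above, was within the muscle and heart list. Of the 7 germ cell markers 6 were at 0 with IgG, and SYCP3 had 2 reads with LC3B, 31 with IgG, 2 in LC3B input and 2 in IgG input. Of the 7 neuronal markers 6 were at 0 with IgG and had reads in the other libraries, such as SNAP25 with 89 with LC3B, 82 in LC3B input and 50 in IgG input. Immunoglobulin genes were at or near 0, with 0 reads of IGHM and at most 1 of IGHG1 in each library, and SDC1 gave nearly all reads of that list of 7 markers. The 9 muscle and heart markers summed to 3382 reads with LC3B, 4678 with IgG, 2718 in LC3B input and 2699 in IgG input, and 5 of them were at 0 with IgG. The 5 liver markers summed to 2611 with LC3B, 1877 with IgG, 1303 in LC3B input and 1200 in IgG input, nearly all from SERPINA1, and the 9 markers of epithelium and skin to 51812 with LC3B, 36266 with IgG, 24699 in LC3B input and 25837 in IgG input. The part of any such cells in the 92 genes was not tested. RIMBP2 (chromosome 12, 130396137 to 130716281), which links calcium channels to synaptic vesicles, was among the 92 with 3 reads with LC3B, 101 with IgG, 3 in LC3B input and 6 in IgG input. SNCAIP, the synuclein partner synphilin, had 102 reads with IgG and 0 in the other 3 libraries.

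With SNCAIP, CSF3R and SLC2A2, 7 genes were at 0 in all 3 other libraries. FAM95B1 (ENSG00000223839, chromosome 9, 40321299 to 40329221), a transcribed unprocessed pseudogene, had the most, with 183 reads with IgG. AC008467.1 had 102, TP53AIP1, an apoptosis gene induced by p53, 82, and MBD3L2 63. The other 5 genes of the MBD3-like family, some of them near-identical copies of MBD3L2, were at 0 with IgG, and MBD3L2B had 5 reads with LC3B and 1 in each input. In the LC3B pull-down 21 of the 92 genes were at 0, against 27 in LC3B input and 26 in IgG input, and 15 were at 0 in both inputs.

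The most read member was AL022344.1 (ENSG00000259869, chromosome 10, 42751178 to 42754297), a long non-coding gene with 5 reads with LC3B, 287 with IgG, 1 in LC3B input and 2 in IgG input, and a fold of LC3B over IgG of 0.0167 (0.00537 to 0.0393). LINC01607 (chromosome 8, 79768110 to 79802842) followed with 2 with LC3B, 262 with IgG, 4 in LC3B input and 4 in IgG input. AL035412.1 had 3 with LC3B, 173 with IgG, 0 in LC3B input and 1 in IgG input. These were 3 of the 37 long non-coding members, and no function is given for them here. Genes with a LINC name gave 7 of 2107, among which 111 had at least 50 reads with IgG, and genes with an antisense name gave 5 of 1371, among which 156 had. LINC00461 (chromosome 5, 88507546 to 88691057), known from brain, had 1 read with LC3B, 115 with IgG, 3 in LC3B input and 4 in IgG input. Divergent transcripts gave 0 of 132, zinc finger genes 0 of 475, HOX genes 0 of 39, protocadherins 0 of 65 and read-through genes 0 of 120. At the 0.152% of all genes that met the rule, each of these families would hold fewer than 1 member, so the zeros do not set them apart.

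Among pseudogenes, KLF2P1 had 4 reads with LC3B, 93 with IgG, 0 in LC3B input and 3 in IgG input, the most of the 4 processed ones. ENPP7P1 had 0 with LC3B, 58 with IgG, 1 in LC3B input and 0 in IgG input, and HSD3BP5 4 with LC3B, 55 with IgG, 3 in LC3B input and 4 in IgG input. TEC genes were AC130456.7 with 98 reads with IgG, AC020763.2 with 85 and AC006128.1 with 52. TUBA4B, which the table calls protein coding, had 1 read with LC3B, 124 with IgG, 0 in LC3B input and 1 in IgG input. The alpha tubulin gene TUBA4A, which it overlaps on the opposite strand, had 822 with LC3B, 381 with IgG, 443 in LC3B input and 411 in IgG input. Reads that match several copies of a gene may have been dropped or divided, so the counts of pseudogenes and of close paralogs such as FAM95B1, FAM27E3, OXCT2 and GSTM2 are uncertain.

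The 92 genes lay on 19 chromosomes. Chromosome 1 held 15, chromosome 11 held 10 and chromosome 2 held 9, while chromosomes 4, 6, 18, 21 and Y held 0. Chromosome Y had 0 genes with at least 50 reads with IgG, so it could hold no member. Such genes numbered 316 on chromosome 4, 132 on chromosome 18 and 93 on chromosome 21. Chromosome 6 had 3064 genes in the table, 475 of them with at least 50 reads with IgG, and chromosome 11 had 3363 and 542. Chromosome 7, with 3015 genes in the table and 469 of them with at least 50 reads with IgG, held 1. By strand 48 were on the plus and 44 on the minus strand.

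Pairs within 100 kb numbered 3, and no share for other sets of genes is given here. KLF2P1 and FAR2P1 on chromosome 2 overlapped on opposite strands, KCNJ5 and TP53AIP1 on chromosome 11 lay 13.6 kb apart on opposite strands, and OR4C6 and OR4P1P were the third pair within 100 kb. Within 1 Mb there were 12 pairs, which involved 23 genes. FAR2P1 had 9 reads with LC3B, 54 with IgG, 3 in LC3B input and 4 in IgG input, and reads of this overlapping pair cannot be told apart without the strand. The other pairs within 1 Mb lay at least 154 kb apart.

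The median genomic span, from the first to the last base in the deposited coordinates, was 9.88 kb, against 1.23 kb for the 43339 other genes low with LC3B and in the inputs. Within protein-coding genes the medians were 16.5 kb in the 92 and 14.3 kb in the others, and within long non-coding genes 7.67 and 5.92 kb. Among pseudogenes they were 7.91 kb in 11 genes and 0.667 kb in 14484 others. Of the 43339 others, 41597 had 0 reads with IgG. Those with 1 to 49 reads with IgG had a median of 3.34 kb. By class their medians were 21.0 kb for protein-coding genes, longer than in the 92, 6.22 kb for long non-coding genes and 0.843 kb for pseudogenes. Genes with at least 50 reads with IgG had longer medians in each class, at 29.8 kb for protein-coding genes, 10.2 kb for long non-coding genes and 13.8 kb for pseudogenes. Of the 11, 6 were transcribed unprocessed, 4 processed and 1 unprocessed pseudogenes, and spans were not compared within these kinds. Of the 92, 8 spanned over 100 kb (8.70%) and 7 under 1 kb. All genes with at least 50 reads with IgG had a median span of 28.04 kb.

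**Figure D4:**
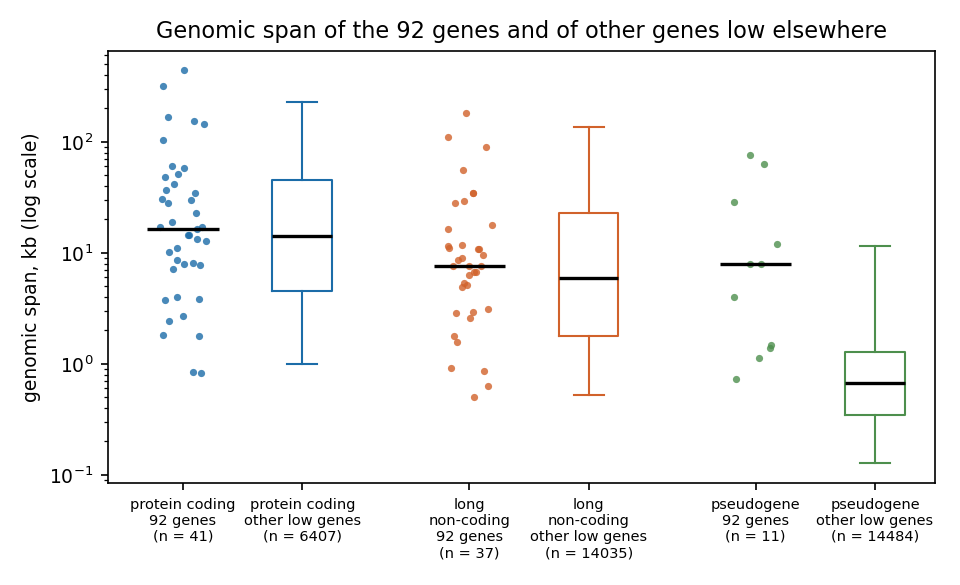
Genomic span in kb (log scale) of the 92 genes, 1 point per gene with the median as a bar, beside the other genes low with LC3B and in the inputs, by class. Boxes run from the lower to the upper quartile with the median as a bar, and whiskers enclose the central 90% of genes. Protein-coding and long non-coding members overlap the boxes of their class, and the 11 pseudogenes have a median of 7.91 kb against 0.667 kb.

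The longest was XKR4 (chromosome 8, 55102028 to 55542054) at 440 kb, with 7 reads with LC3B, 96 with IgG, 5 in LC3B input and 4 in IgG input. RIMBP2 at 320.1 kb, LINC00461 at 184 kb, ADCY5 at 167 kb and SNCAIP at 153 kb came next. The shortest were AC010359.2 at 0.507 kb, AC018690.1 at 0.626 kb, AC093014.1 at 0.724 kb, HBA2 at 0.835 kb and C20orf141 at 0.847 kb, with 52 to 71 reads with IgG. Span counts introns, so it is no measure of transcript length.

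Of the 92 genes, 62 overlapped another gene of the table by at least 1 base (67.4%, 56.8 to 76.8), against 58.7% of the other genes low with LC3B and in the inputs. Within protein-coding genes these shares were 70.7% (54.5 to 83.9) and 54.1%, so the share of the others lay just below the interval of the members. Within long non-coding genes they were 62.2% (44.8 to 77.5) and 67.4%, so the share of the others lay inside the interval of the members. Of the 92, 30 overlapped a gene on the same strand, 48 one on the opposite strand and 30 none. Of the 43339 other low genes, 12011 overlapped a gene on the same strand, 17137 one on the opposite strand and 17909 none. A gene with at least 50 reads with IgG was overlapped by 27 (29.3%, 20.3 to 39.8), against 18.7% of the other low genes, which lay below this interval. Within protein-coding genes the shares overlapping such a gene were 24.4% (12.4 to 40.3) and 13.8%. Within long non-coding genes they were 32.4% (18.0 to 49.8) and 19.8%. In both classes the share of the other low genes lay inside the interval of the members. The other 65 genes overlapped no such gene. Whether the counting used strand is not given in the sources used here, so reads of the 27 genes and their partners cannot be told apart.

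These partners were mostly genes read in every library. Apart from KLF2P1 and FAR2P1, which overlap each other, the 27 genes had 28 partners outside the 92, of which 8 were themselves lower with LC3B than with IgG (28.6%, against 13.7% of all genes with at least 50 reads with IgG) and 15 higher with IgG than in its input (53.6%, against 23%). ZNF197-AS1 had 4 reads with LC3B, 54 with IgG, 4 in LC3B input and 1 in IgG input, and its opposite-strand partner ZNF197, a zinc finger gene, had 61 with LC3B, 298 with IgG, 67 in LC3B input and 70 in IgG input. FAM151A had 2 with LC3B, 101 with IgG, 2 in LC3B input and 4 in IgG input, and its partner ACOT11, an acyl-CoA thioesterase, 13 with LC3B, 157 with IgG, 18 in LC3B input and 14 in IgG input. LINC01772 had 6 with LC3B, 81 with IgG, 1 in LC3B input and 1 in IgG input, and its partner CROCCP3 23 with LC3B, 225 with IgG, 19 in LC3B input and 13 in IgG input. Other partners did not share the pattern, such as C11orf45 beside KCNJ5, with 208 reads with LC3B, 208 with IgG, 107 in LC3B input and 109 in IgG input.

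The nearest gene with at least 50 reads with IgG was taken for each of the 92 genes, and for 86 of them it lay outside the 92. Of these 86 genes 15 had a neighbour that was lower with LC3B than with IgG (17.4%, against 13.7% of all genes with as many reads) and 27 had one that was higher with IgG than in its input (31.4%, against 23%). A neighbour shared by several of the genes, such as MRPS28, counts once for each. For the 61 genes whose neighbour did not overlap them, the neighbour was lower in 10 (16.4%) and higher in 15 (24.6%), at a median distance of 37.9 kb. For the 25 genes whose neighbour overlapped them the neighbour was lower in 5 (20%) and higher in 12 (48%). The neighbours apart thus lay near the share of all genes with as many reads. VMAC beside CAPS, 1.49 kb away on the same strand, was one of the 10, with 7 reads with LC3B, 90 with IgG, 17 in LC3B input and 10 in IgG input. CAPS, a calcium-binding protein, had 7 with LC3B, 139 with IgG, 6 in LC3B input and 4 in IgG input.

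**Figure D5:**
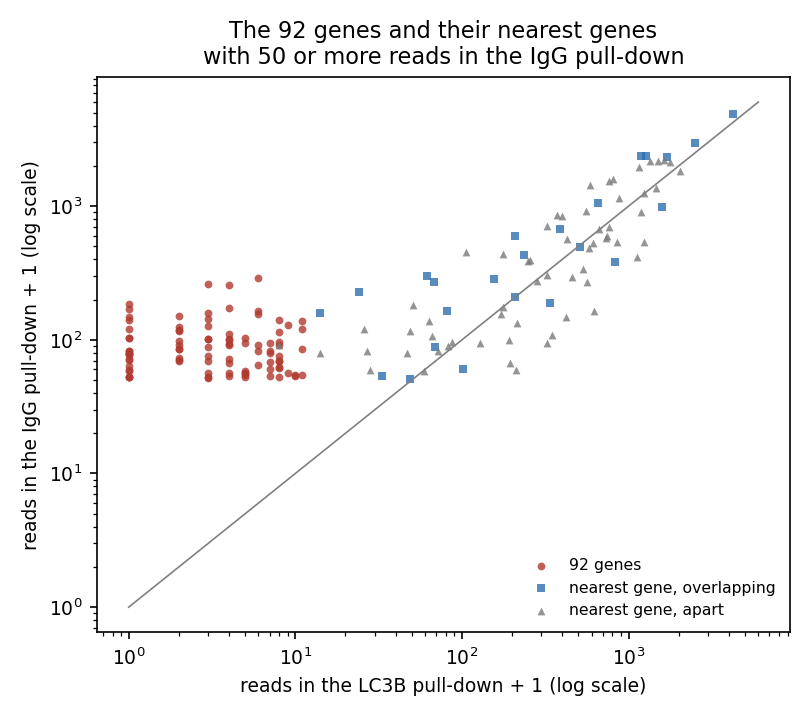
Reads plus 1 with LC3B and with IgG (both log scales) of the 92 genes and of their nearest genes with at least 50 reads with IgG, split into those that overlap a member and those apart. Each neighbour is drawn once, and the line marks equal reads. The 92 genes lie at the left by the rule, and most neighbours lie along the line, with those of 15 among 86 genes lower with LC3B than with IgG.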

How the data were processed

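Polyadenylated RNA of 4 libraries was analysed, 1 per group. The deposited counts are the authors' raw read counts per gene, per the file headers, with digits grouped by commas, which were removed; every value was then whole. The deposited values named TPM per the file headers are the authors' shares per transcript length and sum to the same total in every library; the lengths are not known here. Tools named in the submitters' processing notes are cutadapt 2.8 and STAR 2.7.1a, with build hg38. Not given in the sources used here: the counting tool, annotation release, strand setting, and what was done with duplicates and reads matching several places.

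The 92 genes, lists and tests were chosen with earlier results of these data known. Folds of CPM (total count) have exact conditional binomial 95% intervals. Where a fold is printed for a library at 0, that library was set to 3 reads. Overlap was at least 1 base. Neither an expression model nor a test across samples was possible with 1 library per group. Fold calls were checked on simulated counts. Simulated counts cannot show the error from PCR copies, which cannot be told from separate molecules in these libraries. The outcome of this check is not given here, and nothing about the 92 genes was concluded from it. Named genes were the 20 most read members, the 10 most read protein-coding ones, the 3 most read of each class, the 5 longest and 5 shortest, genes at the thresholds, members of listed families and markers, pairs within 100 kb and the overlapping or nearest genes of named members; other names were chosen after their values were seen, and genes that met the naming rule but are withheld are not reported here. Alternatives were other thresholds, library scalings (TMM and median-of-ratios factors in purpose-written code), TPM, stricter bounds, a filter of 1 CPM and leaving out overlapping members. Analyses used Python 3.11.15, numpy 2.4.6, pandas 2.3.3, scipy 1.17.1 and matplotlib 3.10.9.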

Additional observations from a re-analysis of the deposited data

How the results depend on the processing

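The number of genes depended on the thresholds, as such a rule must: it was 57 with at most 5 reads over the inputs, 208 with at least 25 reads in the IgG pull-down and 30 with at least 100, against 92. It stayed within 1.5 times of 92 under the other thresholds (68 to 127), with library scalings (87 to 90, of which 85 to 88 were among the 92) and without overlapping members (65). The shares of protein-coding and long non-coding genes and the median span stayed within their intervals under every setting run. The share overlapping another gene fell to 53.8% without the members that overlap a gene with at least 50 reads in the IgG pull-down, which follows from leaving these out. The rule with the pull-downs exchanged, tried after seeing the data, met 15 genes at 25 reads, 0 at 100 and 3 to 4 otherwise. In TPM 91 of 92 genes were at or below 0.5 for LC3B over IgG. The exception was FZD10-AS1 with 0.80 TPM in the LC3B pull-down and 1.45 in the IgG pull-down. With a stricter bound of 0.25 on the interval of the fold of CPM, 86 of the 92 were called lower. For IgG over its input all 92 were called higher under each setting run. The rule used the reads of both comparisons, so these counts of genes describe the choice and support nothing. No paired analysis was possible because each group holds 1 library, and for the same reason no library could be left out. Depth limits the low side: 3 reads are 0.287 CPM in the LC3B pull-down and 0.276 in the IgG input.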
